A study of Danio rerio with 6 samples.

Results

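Crystallins are the water-soluble proteins that fill the fibre cells of the vertebrate lens and give it its refractive power. The alpha family act as chaperones, whereas the beta and gamma families are structural proteins that pack at high concentration. Fish lenses are dense and nearly spherical, and they hold an expanded class of gamma-crystallins rich in methionine, the gamma-M class, for which zebrafish carry many near-identical gene copies. The genes described here are 4 of the gamma-M2 subclass, crygm2a, crygm2b, crygm2d4 and crygm2d17. Each was read from a single target among the 37157 targets of the array. These targets were found by the RefSeq mRNA identifiers NM_001018121, NM_001020783, NM_001089431 and NM_001099243. Targets with identifiers of other kinds were not assigned to genes, so further targets of the 4 genes may exist. The 4 genes were chosen by their ratios of 5 Gy to control in these same arrays, so their differences between groups are given as a description and carry no test.

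The irradiated group consisted of 3 pools of whole zebrafish larvae of the wild-type AB strain, exposed to 5 Gy in a Co-60 irradiator at 26 hpf (hours post fertilization) and collected at 120 hpf. The control group consisted of 3 pools of the same strain and age that were mock irradiated (0 Gy). Each pool held 50 larvae and was hybridized to its own NimbleGen expression array in a single colour, so each value stands for a pool and not for a larva. The values deposited are quantile-normalized intensities of single 60-mer probes, and a target was summarized as a log2 value per pool.

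The pools did not separate cleanly by dose over all targets. 5 Gy replicate 2 was the least like the others, with correlations across targets of 0.893 to 0.920, and control replicate 3 resembled 5 Gy replicate 3 (0.987) more than control replicates 1 (0.897) and 2 (0.905). The labelled tissue, whole larvae, was checked on the levels of marker genes. The measured skeletal muscle targets, acta1b and mylpfb, lay at the 99.8th and 99.9th percentiles of all targets, 17 of 22 lens targets lay above the upper quartile of all targets, and 2 of 6 photoreceptor targets did. No listed liver gene was matched.

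All 26 gamma-M2 genes of the current zebrafish RefSeq annotation lie on chromosome 9, and 10 of them were matched to a target by RefSeq mRNA identifier. The others may have targets under identifiers of other kinds, which were not assigned to genes. In that annotation (GRCz12tu, used here for the order of genes only, because the build behind the array is not given in the sources used here) crygm2b and crygm2a are direct neighbours. The gene crygm2d17 lies between crygm2d18 and crygm2d8, and crygm2d4 lies between crygm2d9 and crygm2d7. Probes and targets of near-identical copies can take up each other's transcripts, so every value below is that of a target and may include signal of its paralogs.

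The 4 targets were higher in the irradiated pools by their group means, and they fell into 2 pairs with different patterns over the pools. All 4 differed most between the pools numbered 2, and the pairs were set apart by how much. That difference was 3.53 and 3.91 log2 units for crygm2a and crygm2b, against 0.35 to 0.84 between their pools numbered 1 or 3. For crygm2d4 it was 1.26, against 1.02 and 0.68 between the pools numbered 1 and 3, and for crygm2d17 the pools numbered 2 stood at 12.16 at 5 Gy and 10.67 in the control, against differences of 0.86 and 0.55 in the other pairs. The groups did not overlap for crygm2b, crygm2d4 and crygm2d17. In RNA of whole larvae, more lens fibre cells and more transcript in each cell cannot be told apart.

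The log2 value of crygm2a was 8.85, 11.55 and 9.27 in 5 Gy replicates 1, 2 and 3, against 8.33, 8.01 and 8.91 in control replicates 1, 2 and 3. The groups overlapped, because 5 Gy replicate 1 lay below control replicate 3. The mean was 9.89 ± 1.45 at 5 Gy and 8.42 ± 0.456 in controls (SD, n = 3 pools each), a log2 ratio of 1.47. Without 5 Gy replicate 2 the ratio was 0.64.

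The neighbouring gene crygm2b had log2 values of 9.13, 11.38 and 8.86 in 5 Gy replicates 1, 2 and 3, against 8.29, 7.47 and 8.16 in control replicates 1, 2 and 3. Here every irradiated pool lay above every control pool, with 5 Gy replicate 2 the highest and control replicate 2 the lowest. The mean was 9.79 ± 1.38 at 5 Gy and 7.97 ± 0.442 in controls (SD, n = 3 each), a log2 ratio of 1.82. The ratio was 1.03 without 5 Gy replicate 2 and 1.57 without control replicate 2.

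For crygm2d4 the log2 values were 11.83, 12.04 and 12.04 in 5 Gy replicates 1, 2 and 3, against 10.81, 10.78 and 11.37 in control replicates 1, 2 and 3. The irradiated pools were close to each other and all above the controls, of which control replicate 3 was the highest. The mean was 11.97 ± 0.124 at 5 Gy and 10.99 ± 0.330 in controls (SD, n = 3 each), a log2 ratio of 0.98, or 1.98-fold.

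The target of crygm2d17 gave 11.73, 12.16 and 11.90 in 5 Gy replicates 1, 2 and 3, against 10.87, 10.67 and 11.35 in control replicates 1, 2 and 3. Again the groups did not overlap, 5 Gy replicate 2 was the highest and control replicate 2 the lowest, and control replicate 3 was the closest of the controls to the irradiated pools. The mean was 11.93 ± 0.220 at 5 Gy and 10.96 ± 0.352 in controls (SD, n = 3 each), a log2 ratio of 0.97, or 1.96-fold. Without 5 Gy replicate 2 the ratio was 0.85 for crygm2d17 and 0.95 for crygm2d4, and without control replicate 3 it was 1.16 and 1.17. The values of 3 of the 4 genes thus did not overlap between groups, against 2.78% of all targets that were higher at 5 Gy without overlap, a share that says nothing further because the genes were chosen on this contrast. The lowest ratio of the 4 was that of crygm2d17, and the next lower ratio of the subclass was 0.46, for crygm2d20.

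**Figure D1:**
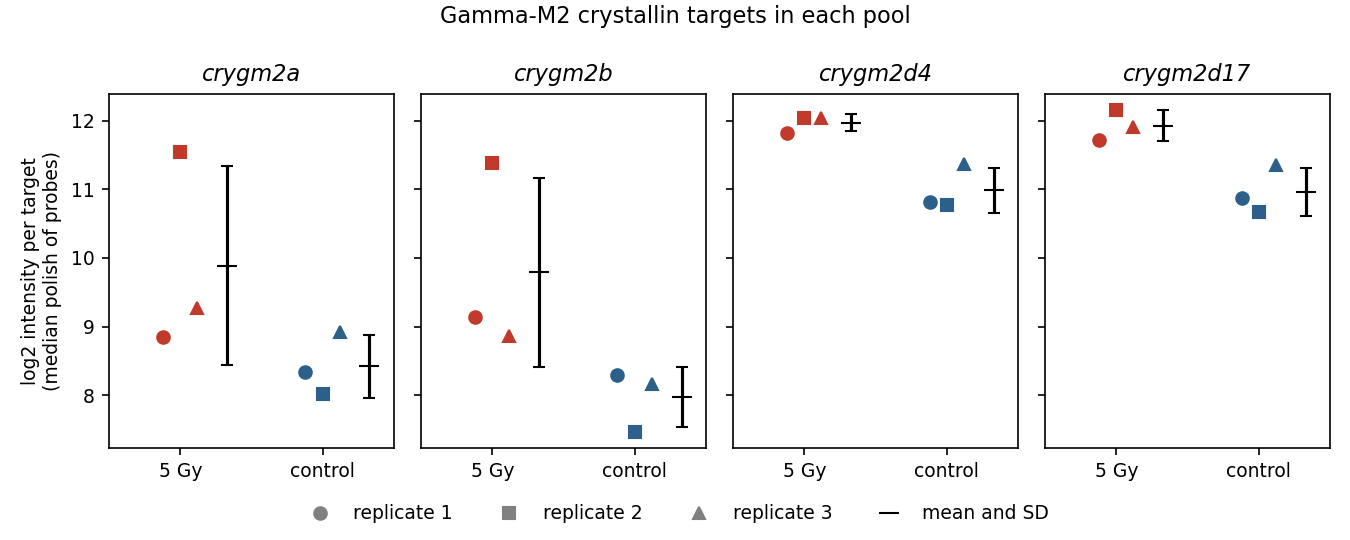
Log2 intensity per target (vertical axis) in the 3 irradiated and 3 control pools for each of the 4 genes, with the replicate number given by the symbol and the group mean with its SD as a bar. For crygm2a and crygm2b, 5 Gy replicate 2 stood at 11.55 and 11.38, far above the other 5 pools, whereas the irradiated pools of crygm2d4 and crygm2d17 lay between 11.73 and 12.16.

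The likeness within each pair was examined after centring every target on its own mean over the 6 pools, since the brightness of different probes does not compare amounts of RNA. The centred values of crygm2d4 and crygm2d17 differed by at most 0.15 log2 units in any pool, and those of crygm2a and crygm2b by at most 0.56. Between the pairs the largest difference in a pool was 1.68 to 1.93. The supplementary tables of the study list the targets of crygm2d4 and crygm2d17 as altered, without a gene name, and do not list those of crygm2a and crygm2b. A further target, OTTDART00000027354, carries the human name CRYGB in those tables and was likewise selected on these arrays. Its log2 values were 11.74, 12.05 and 12.13 at 5 Gy, against 10.86, 10.81 and 11.44 in controls, with no overlap and a ratio of 0.94. Its centred values differed from those of crygm2d4 by at most 0.11 and from those of crygm2d17 by at most 0.17. These 3 targets therefore gave nearly the same profile, while the 6 other gamma-M2 targets differed from crygm2d4 by 0.47 to 0.69 in the pool where they were farthest apart. Such differences measure size and not shape. The correlation with crygm2d4 over the 6 pools was 0.984 for crygm2d17 and 0.994 for the CRYGB target. For the 6 other targets it ran from 0.544 (crygm2d3) to 0.908 (crygm2d5). All 3 targets had been selected as higher at 5 Gy, so part of their likeness follows from that choice. After removal of group means the correlation with crygm2d4 was 0.921 for crygm2d17, 0.981 for the CRYGB target and 0.984 for crygm2d5. For the rest of the gamma-M2 targets it then ran from -0.092 (crygm2d13) to 0.602 (crygm2d2). The pattern within groups was thus not particular to the 3 targets. Whether the 3 targets read the same transcript was not tested, because no probe sequence was used here.

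**Figure D2:**
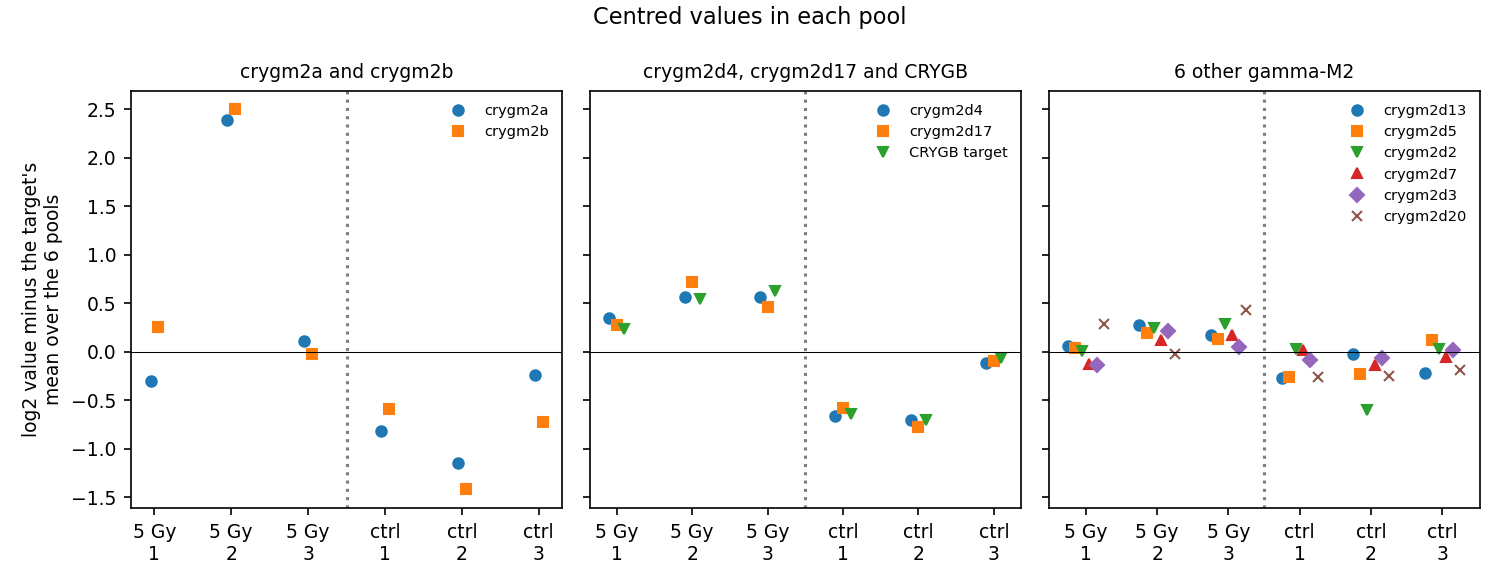
Log2 values per target minus the target's mean over the 6 pools (vertical axis), in 5 Gy replicates 1 to 3 and then control replicates 1 to 3. The pair crygm2a and crygm2b peaked in 5 Gy replicate 2, crygm2d4, crygm2d17 and the CRYGB target differed from each other by at most 0.17 in any pool, and the 6 other gamma-M2 targets varied less over the pools.

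Single probes were examined next, to see whether the ratios were carried by all probes of a target. The number at the end of a probe identifier was read as the start of the 60-mer on its transcript, which the sources used here do not state. Adjacent probes of RefSeq mRNA targets numbered under 10 apart differed in level by a median of 0.35 log2 units, against 1.01 for those numbered 60 or more apart. Adjacent probes numbered under 60 apart, which would share bases, were joined into a stretch, so probes at the ends of a long stretch may share none. By this count the gamma-M2 targets had few stretches. The 12 probes of crygm2d17 formed 2 stretches, the 10 of crygm2d4 and the 12 of crygm2a formed 3 each, and the 12 of crygm2b formed 6, whereas the median RefSeq mRNA target with 12 probes had 12 stretches. Only 3.49% of such targets had 3 or fewer. Equal counts can cover unlike lengths. The stretches of crygm2a ran from 34 to 157, 248 to 286 and 421 to 525, whereas 8 probes of crygm2d4 lay within 1 to 22.

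All 12 probes of crygm2a and all 12 of crygm2b were higher at 5 Gy by their means, with log2 ratios of 0.85 to 1.85 and 0.93 to 2.56. In each of these targets 11 of 12 probes had their highest value in 5 Gy replicate 2, as did 9 of 12 of crygm2d17 and 6 of 10 of crygm2d4, against 20.0% of all probes. The lowest value was in control replicate 2 for 7 probes of crygm2a, 8 of crygm2b, 7 of crygm2d17 and 5 of crygm2d4. The share of all probes with their lowest value there was not counted, so these counts are a description only. The probe of crygm2b numbered 277, for example, gave intensities of 935, 7065 and 1488 in 5 Gy replicates 1, 2 and 3, against 721, 52.95 and 2227 in control replicates 1, 2 and 3. The 3 values at 5 Gy all exceeded the 3 control values for 1 of 12 probes of crygm2a and 4 of 12 of crygm2b, against 3.04% of all probes. The genes were chosen on this contrast. For crygm2b, 3 of these 4 probes belong to the stretch numbered 419 to 424. Parts of crygm2a were dim. Of its 72 probe values 13 were at or below the lower quartile of their array (96.2 to 98.8), against 3 of 72 for crygm2b, 0 of 60 for crygm2d4 and 0 of 72 for crygm2d17.

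For crygm2d4 and crygm2d17 the ratio rested mostly on probes with low numbers, which are most of their probes. The few at higher numbers were also brighter, so number and brightness cannot be told apart here. The stretch of crygm2d4 numbered 1 to 22, with 8 of its 10 probes, averaged 11.80, 11.99 and 11.93 in 5 Gy replicates 1, 2 and 3, against 10.63, 10.75 and 11.27 in control replicates 1, 2 and 3, a log2 ratio of 1.03 with no overlap. Its other probes, numbered 143 and 528, had ratios of 0.49 and 0.36, and the groups overlapped for the probe numbered 143. That probe read 26674, 20185 and 38653 at 5 Gy, against 18000, 12957 and 32465 in controls, so that it was higher at 5 Gy in each of the 3 pairs of pools with equal number.

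In crygm2d17 the stretch numbered 13 to 67, with 11 of 12 probes, had means of 11.88, 12.43 and 12.06 at 5 Gy, against 11.09, 11.01 and 11.59 in controls, a ratio of 0.89 with no overlap. The remaining probe, numbered 266, read 17799, 40477 and 18566 at 5 Gy, against 31365, 7081 and 23820 in controls, and its groups overlapped, with the 5 Gy pool higher in 1 of the 3 pairs of equal number. The probe numbered 67 was the only one of crygm2d17 with a ratio below 0, at -0.25. It belongs to the stretch numbered 13 to 67 and was bright, with a mean log2 intensity of 13.69. Over single probes the 3 irradiated values all exceeded the controls for 6 of 10 probes of crygm2d4 and 9 of 12 of crygm2d17, against 3.04% of all probes, and again this contrast had chosen the genes. With each stretch given equal weight, a setting added after seeing the data, the ratio was 0.62 for crygm2d4 and 0.67 for crygm2d17, against 1.42 for crygm2a and 1.75 for crygm2b. Probes of a stretch that share bases are not separate measurements of the transcript.

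**Figure D3:**
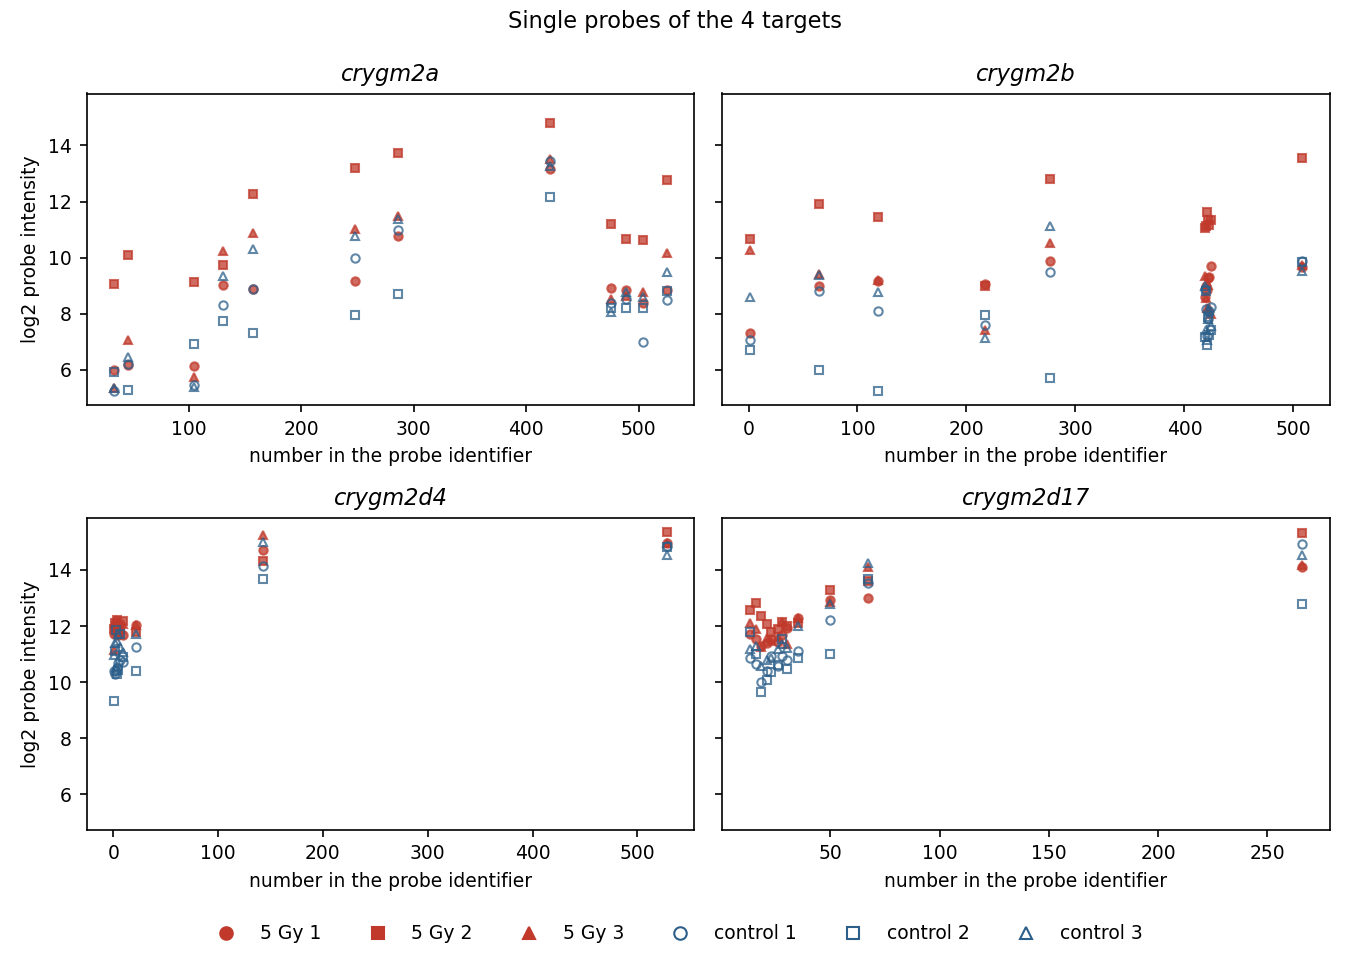
Log2 intensity of each probe (vertical axis) against the number in its identifier (horizontal axis) in the 3 irradiated pools (filled) and the 3 control pools (open). Most probes of crygm2d4 and crygm2d17 sit at low numbers, from 1 to 22 and 13 to 67, and the few at higher numbers are brighter, with overlapping groups at numbers 143 and 266.

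Probe ratios were also set beside brightness, in classes chosen after seeing the values. For crygm2d4 and crygm2d17 together, the 18 probes with a mean log2 intensity under 13 had ratios of 0.56 to 1.56, and the 4 brighter ones had ratios of -0.25 to 0.49, with a median of 0.40. The 57 probes of the 6 other gamma-M2 targets at 13 and over had a median of 0.27. Their 7 probes from 11 to 13, all of crygm2d13 or crygm2d20, had a median of 0.58. For crygm2a and crygm2b, 22 of 24 probes lay under 11, with a median of 1.60, and the other probes had ratios of 1.65 (from 11 to 13) and 0.85 (at 13 and over). Brighter classes thus had lower medians for crygm2d4 with crygm2d17, but not between the lower classes of crygm2a and crygm2b. For the 6 other targets the brighter class also had the lower median, but this sets all 6 against crygm2d13 and crygm2d20 only. The genes with probes under 11 had been chosen on these ratios. Over all probes of the array the median ratio was -0.03 under 11, -0.03 from 11 to 13 and -0.01 at 13 and over, while the median size of a ratio in either direction was 0.44, 0.29 and 0.20. The highest intensity of an array, 62978 to 65248, was shared by 24, 144 and 33 probes in 5 Gy replicates 1, 2 and 3, against 11, 26 and 36 in control replicates 1, 2 and 3. In at least 1 pool 2 probes of crygm2d2, 2 of crygm2d3 and 1 of crygm2d5 were at that value, and none of the 4 genes or of the other 3 targets had such a probe. The part of this upper end, and of paralog signal, in the ratios was not tested.

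**Figure D4:**
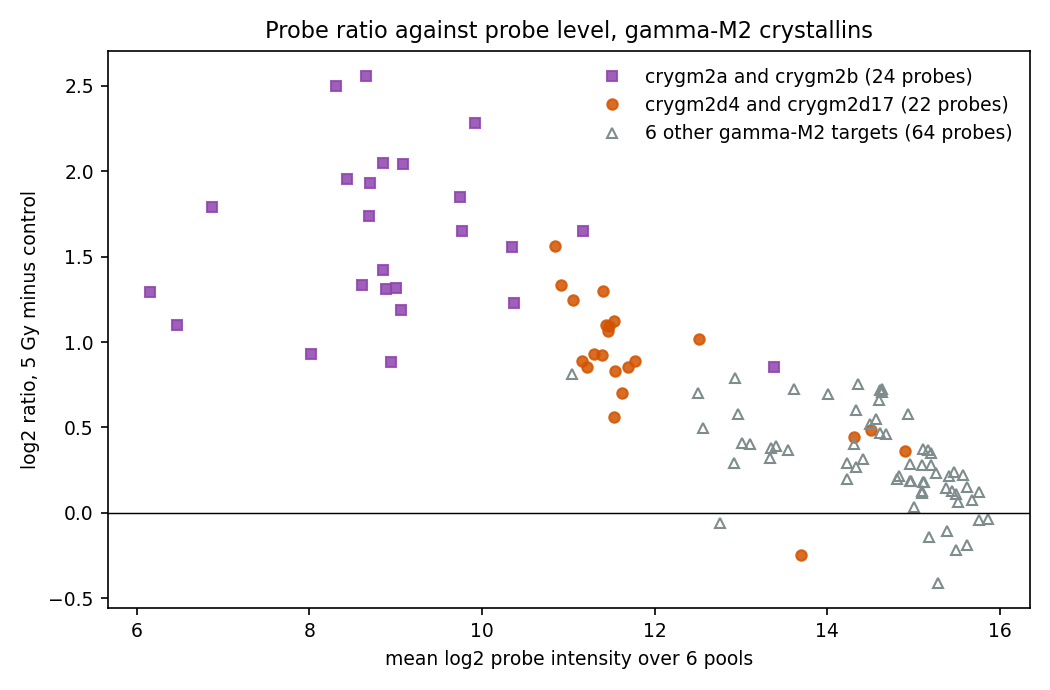
Log2 ratio of 5 Gy to control for each gamma-M2 probe (vertical axis) against its mean log2 intensity over the 6 pools (horizontal axis), with crygm2a and crygm2b, crygm2d4 and crygm2d17, and the 6 other targets marked apart. The 57 probes of the other targets at 13 and over had a median of 0.27, the 4 of crygm2d4 and crygm2d17 there a median of 0.40, and 22 probes of crygm2a and crygm2b under 11 a median of 1.60.

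The 10 other gamma-crystallin targets with a zebrafish symbol were compared with limma, fitted over all targets. They are what was left once the genes with the highest ratios had been taken, so their counts are not independent of that choice. Targets that differed by 1.5-fold or more in either direction with an unadjusted p below 0.05 were called altered, and 4.04% of all targets were. None of the 10 was altered. The 6 other gamma-M2 targets all had ratios above 0, from 0.08 to 0.46, with a median of 0.29 against -0.03 over all targets. The largest was that of crygm2d20, with 13.44, 13.13 and 13.58 at 5 Gy, against 12.89, 12.90 and 12.97 in controls, and a log2 ratio of 0.46 (standard error 0.266, adjusted p = 0.905 from limma). Its groups did not overlap, nor did those of crygm2d13, with 14.89, 15.10 and 15.00 at 5 Gy, against 14.56, 14.81 and 14.61 in controls and a ratio of 0.34. Of all targets 2.78% were higher at 5 Gy without overlap. Of the other 4, crygm2d2 had a ratio of 0.36, crygm2d5 of 0.25, crygm2d7 of 0.12 and crygm2d3 of 0.08, each with overlapping groups, and those of crygm2d2, crygm2d5 and crygm2d3 include the probes at the upper end of the scale.

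Outside the gamma-M2 subclass the gamma-crystallins showed no common direction. The ratio of crygmx was -0.41 (standard error 0.296, adjusted p = 0.905 from limma), with 12.36, 12.52 and 12.94 at 5 Gy, against 13.16, 13.17 and 12.71 in controls, so that the groups overlapped. The ratio was 0.10 for crygmxl1, the neighbour of crygm2b on chromosome 9, which was dimmer than most targets (percentile 31.4 by mean level), and 0.22 and 0.03 for crygn1 and crygn2, members of the gamma-N class.

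Of the other lens genes, 6 alpha-, beta- and beta/gamma-crystallin targets had ratios of -0.24 to 0.34 (median 0.09), and 6 targets of 30 listed genes of lens structure or regulation had ratios of -0.15 to 0.36 (median 0.15). The second group holds mipa, the water channel of lens fibres, at -0.15, lim2.2, lim2.3 and lim2.5 of the lens membrane protein family, at 0.27, 0.07 and 0.20, foxe3, a transcription factor of lens epithelium, at 0.11, and birc7 at 0.36. The beta-crystallin crybb1 had the lowest ratio of the first group and the small heat shock protein cryabb the highest. Altogether 0 of 22 lens targets were altered by limma and 0 had an unadjusted p under 0.05. The methods' t-test also called 0 of 22, against 1.53% of all targets, although crygm2d13 and crygm2d20 had an unadjusted p under 0.05 by it. With array weights 3 of 22 were called higher, cryabb, crygm2d20 and birc7, near the 12.7% of all targets called higher in that fit.

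Photoreceptors, the light-sensing cells of the retina, were taken as another cell type of the eye. Of 57 listed genes 6 had a matched target. None of these was altered by limma or had an unadjusted p under 0.05, and all 6 ratios were above 0, with a median of 0.36. The highest were those of nrl, a transcription factor of rods, at 1.12 (standard error 0.513, adjusted p = 0.905 from limma), and grk1a, a rhodopsin kinase, at 0.82 (standard error 0.375, adjusted p = 0.905 from limma). By mean level nrl was dim, at percentile 15.3 of all targets and the lowest of the 6, and grk1a lay at percentile 44.6. The log2 values of nrl were 5.99, 7.82 and 6.78 at 5 Gy, against 5.57, 5.22 and 6.45 in controls, with 5 Gy replicate 2 the highest and control replicate 2 the lowest, as for crygm2b. With the replicate number as a block both nrl and grk1a were called higher, as were 3.61% of all targets. The part of the retina in the values of the 4 genes was not tested.

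**Figure D5:**
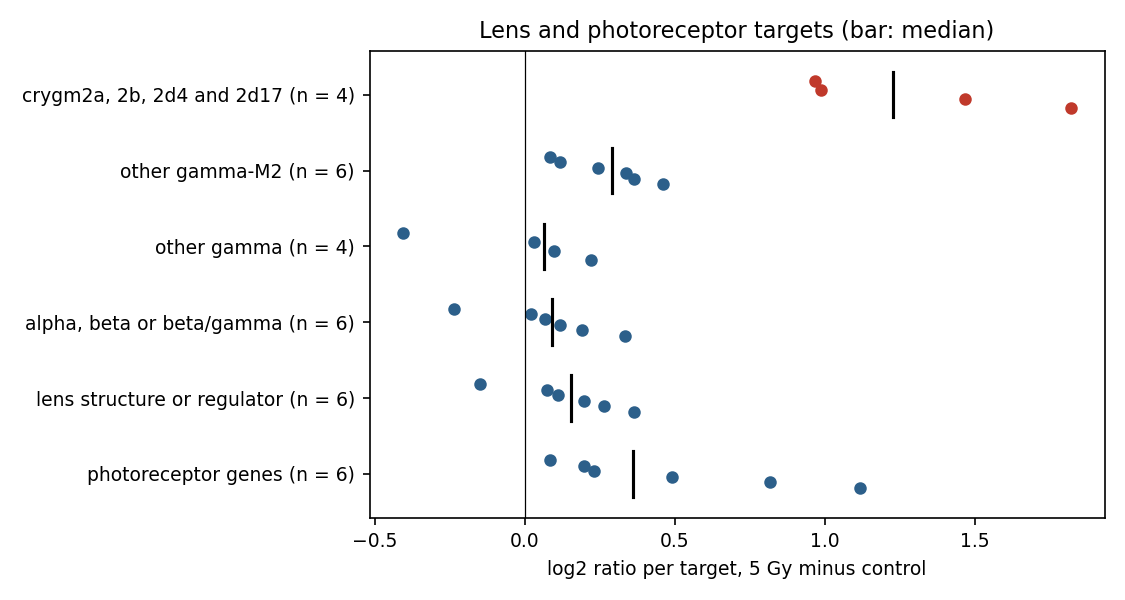
Log2 ratio of 5 Gy to control per target (horizontal axis), with a bar at the median of each list, for the 4 genes chosen on this contrast, the other lens targets by class and the photoreceptor targets. The 4 genes lie between 0.97 and 1.82, the 22 other lens targets between -0.41 and 0.46, and the 6 photoreceptor targets between 0.08 and 1.12.

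The genes most like the 4 in their pattern were sought among the 2659 other targets with a zebrafish symbol, by the Pearson correlation over the 6 pools with the mean centred value of the 4, which was 0.14, 1.54 and 0.28 at 5 Gy and -0.66, -1.01 and -0.29 in controls. The closest were lhpp, a phosphatase (r = 0.984), adss2, an adenylosuccinate synthase (r = 0.969), nme9 (r = 0.950), the mitochondrial carrier slc25a24l (r = 0.948) and nrl (r = 0.948), and 23 targets had r over 0.9. Spearman's rho for these 5 was 0.771 to 0.943. The values of lhpp were 10.69, 11.61 and 10.65 at 5 Gy, against 10.24, 9.81 and 10.18 in controls. The correlations are descriptions over 6 pools that share their arrays and normalization, and 5 Gy replicate 2 and control replicate 2 lay farthest from the median. Without these 2 pools r was 0.881 for lhpp, 0.763 for adss2, 0.808 for nme9, 0.995 for slc25a24l and 0.700 for nrl. Of the lens targets compared, none was among the closest to the mean of the 4. The CRYGB target, which has no zebrafish symbol and so was not among those compared, had r = 0.855 (rho = 0.943), and 0.978 without the 2 pools. The highest of the lens targets with a symbol was crygm2d5, at 0.814, the 6 other gamma-M2 targets lay between 0.457 and 0.814, and crygmx had the lowest value of the lens targets, -0.690. With crygm2d4 and crygm2d17 taken singly, r was 0.994 and 0.980 for the CRYGB target, and 0.908 and 0.915 for crygm2d5. With crygm2a and crygm2b it was 0.735 and 0.727 for the CRYGB target, and 0.749 and 0.671 for crygm2d5. Of the 6 other gamma-M2 targets crygm2d3 had the highest r with each of them, 0.882 with crygm2a and 0.730 with crygm2b. The correlation of crygm2a with crygm2d4 was 0.731 and with crygm2d17 0.827. In size crygm2d3 differed, by up to 2.18 log2 units from crygm2a in centred values.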

How the data were processed

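The authors extracted array images with NimbleScan and quantile normalized the signal, and the deposited values are linear intensities of single probes. The submitters' notes also list RMA, whose step that combines probes had not been applied to these values. Background handling is not stated, so no other background correction could be tried. All 6 columns were used (0 left out). Log2 probe values were combined per target by median polish (tolerance 0.01, at most 10 iterations), with no filter, in R 4.3.3 (package versions 1.17.8 of data.table and 3.58.1 of limma), and groups were compared over all 37157 targets with limma (lmFit, eBayes, no covariate, Benjamini-Hochberg adjustment). Scripts were tested on simulated data. Symbols came from RefSeq mRNA identifiers (2663 of 3055 such targets matched). The genes and lists were chosen with earlier results of these data known.

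Genes named by rule are the 4 genes, every other gamma-crystallin target with a zebrafish symbol and the CRYGB target. Also named are up to 4 altered targets of each list or, with none, the 2 with the smallest p, and the 5 most similar profiles. The genes of lens structure or regulation are given whole, and cryabb and crybb1 were named after their values were seen. Replicates came from separate clutches, and the methods do not say whether equal numbers share a clutch. After removal of group means, pools of equal number correlated across targets at 0.150, 0.239 and 0.497, each over 0.1, so a fit with the replicate block was run beside the main one. The other alternatives were a second quantile normalization, median centring, mean or median of probes, filters on bright or dim probes and on dim targets, limma with array weights or with an eBayes trend, the methods' t-test unpaired and paired, and omission of each pool in turn. Stretches weighted equally were added after seeing the data. The number of arrays limits the precision.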

Additional observations from a re-analysis of the deposited data

How the results depend on the processing

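The ratios of all 4 genes stayed above 0 in every setting that changed the values. The genes had been chosen for their ratios in these same arrays, so this sign is a description and no test. The filter on dim probes removed 0 probes of the 4 genes and that on bright probes 0 of crygm2a and crygm2b, so there these settings equal the main value by construction. With stretches weighted equally they were 0.62 for crygm2d4 and 0.67 for crygm2d17, further from the main value than the spread between pools; that setting takes weight from overlapping probes by construction. Leaving out each pool in turn gave 0.64 to 1.99 for crygm2a, 1.03 to 2.28 for crygm2b, 0.88 to 1.17 for crygm2d4 and 0.82 to 1.16 for crygm2d17. The replicate block leaves a ratio as it is (1.47 for crygm2a). Over all targets 1500 were altered by limma, 3272 with the replicate block (1929 lower and 1343 higher), 10913 with array weights, 569 by the methods' t-test and 341 in its paired form. Leaving out single pools gave 308 to 7126, namely 895 when 5 Gy replicate 2 was omitted, and 308, 310 and 7126 when control replicate 1, 2 or 3 was. Of 22 other lens targets 0 were altered, and 3 with array weights. Of 6 photoreceptor targets 0 were altered, 2 with the replicate block, 1 with an eBayes trend, 2 with array weights, and 0 to 2 without single pools (1 without 5 Gy replicate 1, 2 without control replicate 3). The causes of these shifts were not tested.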
